A study of Homo sapiens with 6 samples.

Results

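Proteins tagged for degradation by ubiquitin are destroyed by the proteasome, and the 54 genes described here encode that machine, the factors that build and regulate it, and the core of the ubiquitin ligase on which the degron of this experiment depends. They are the GENCODE protein-coding genes whose symbols begin with PSMA, PSMB, PSMC, PSMD, PSME, PSMF or PSMG and a digit, which gave 50 genes, together with SKP1, CUL1, RBX1 and CAND1. The series held 36415 genes, of which 15765 had enough counts to be tested, and 51 of the 54 members were among the tested genes. The symbol rule also caught 2 genes that are not proteasome subunits, PSMC3IP, a meiotic recombination factor, and PSME3IP1, a protein that interacts with PSME3. Both are counted among the 51, and their own values are also given apart.

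The cells were HCT116, a human colorectal carcinoma line, in which both MCM2 alleles carry the mini auxin-inducible degron (MCM2-mAID) and which express the plant F-box protein AtAFB2 from a CMV promoter, all from 1 clone. They were synchronised by a double thymidine block and sorted for G1 DNA content, and received either auxin (3-indoleacetic acid, 500 µM for 6 h by the general culture methods) or the solvent DMSO, with 3 poly(A) RNA libraries for each. Both groups carry the tagged alleles and the F-box protein, so the response to auxin itself and the response to loss of MCM2 cannot be told apart. The study calls the replicates independent, without stating if each was grown as its own culture. The p-values measure only the spread between these libraries. In bulk RNA, fewer cells expressing a gene and less of its RNA per cell cannot be told apart.

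The libraries held 52528902 to 68417081 estimated counts, and the members took 0.865 to 0.881% of the counts matched to genes in the auxin libraries and 0.892 to 0.928% in the DMSO libraries, without overlap. The markers of colon epithelium came to a summed 4254 to 4452 CPM (counts-per-million of the library) in auxin and 4611 to 5095 CPM in DMSO, 7 of the 8 passed the filter on low counts and KRT18, a keratin of simple epithelia, was called lower (log2 fold change -0.17 ± 0.05 SE, adjusted p = 0.094). With the replicate block described below, 4 of these 7 were called lower, or 57.1% against 14.6% of all genes tested. They were KRT18, KRT8 (-0.16, adjusted p = 0.004), EPCAM (-0.08, 0.073) and VIL1 (-0.69, 0.043). CDH1, CDX2 and KRT19 were not called (0.05, 0.03 and -0.06). The marker LGALS4 was near 0 (at most 0.18 CPM), leukocyte markers summed to at most 0.857 CPM, and fibroblast markers to 31.5 to 39.4 CPM in auxin and 26.9 to 35.5 CPM in DMSO, nearly all from COL1A1, which was called higher with the block (0.19, adjusted p = 0.008). The part of these marker levels in the results below was not tested. MCM2 mRNA was 347 to 356 CPM in auxin and 343 to 389 CPM in DMSO (adjusted p = 0.56, and 0.28 with the block). The degron acts on the protein, so this level does not check the labels.

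The proteasome is a barrel with a cap. The barrel, or core particle, stacks rings of alpha subunits, which gate entry, on rings of beta subunits, of which PSMB5, PSMB6 and PSMB7 carry the protein-cutting sites. The cap, or regulatory particle, has a base, whose ring of ATPases unfolds the substrate, and a lid, which removes the ubiquitin chain. In an SCF ligase, the scaffold CUL1 holds the RING protein RBX1, which recruits the ubiquitin-charged enzyme, at one end and the adaptor SKP1 with a substrate-binding F-box protein at the other, and CAND1 exchanges the F-box protein. AtAFB2 takes the F-box position and, in the presence of auxin, presents the tagged MCM2.

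Transcription of proteasome genes is known to be raised by NFE2L1, a factor that is held at the endoplasmic reticulum and released to the nucleus when proteasome capacity is short, and that binds antioxidant response elements with a small MAF partner. The letters TGACNNNGC, a common short form of that element, were searched on both strands of the RefSeq promoters (GRCh38.p14, 250 bases before to 50 after each start). They occurred in 17 of the 63 promoters listed for the members, or 27%, and in 13.3% of all 35116 promoters, and 48 of the 54 members had a listed promoter. The letters CCAAT, the box bound by NF-Y, occurred in 41.3% of the members' promoters and in 34.6% of all promoters. A match is a description of the letters in this window and was not tested as a site. The following 8 windows were chosen, with the fold changes known, to show the element in members of different roles, some called lower in auxin and some not. Each is printed 5′ to 3′ on the strand that carries the match, with the match in capitals.

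SKP1 (chr5:134177005-134177033, minus strand): agccgcgatgTGACGCCGCgcgccccggg
RBX1 (chr22:40951244-40951272, minus strand): gcggagcacgTGACCACGCctcttaaagg
PSMA4 (chr15:78540650-78540678, plus strand): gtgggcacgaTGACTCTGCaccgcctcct
PSMB3 (chr17:38752627-38752655, plus strand): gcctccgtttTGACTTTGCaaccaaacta
PSMC5 (chr17:63827654-63827682, minus strand): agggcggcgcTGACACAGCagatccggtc
PSMD12 (chr17:67366724-67366752, minus strand): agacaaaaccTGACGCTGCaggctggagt
PSMG1 (chr21:39183616-39183644, minus strand): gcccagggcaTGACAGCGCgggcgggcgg
PSME1 (chr14:24136098-24136126, plus strand): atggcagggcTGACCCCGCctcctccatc

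Of these 8 genes, SKP1, RBX1, PSMA4, PSMC5, PSMD12 and PSMG1 were called lower in auxin once the replicates were paired. PSMB3 and PSME1 were not. Among further members with the element, PSMD9 and PSMG2 were called lower in that fit, and PSMD3, PSMD5, PSME4, PSMB9 and PSME2 were not. The element occurred in 17 members, and not all of them are named here. Because the 8 were chosen with the fold changes known, their tally does not show whether the element goes with the fold change, which was not tested.

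Most members had fold changes slightly below 0. This held for 46 of the 51 tested members, against 46.5% of all genes tested, and the median log2 fold change was -0.10, or 6.92% below DMSO, against 0.01 over all genes tested. On the log2(TPM + 1) scale 33 of the 51 were below 0. The middle of the distribution ran from -0.12 to -0.06 among the members and from -0.08 to 0.13 among all genes (lower to upper quartile). In CPM, every auxin library lay below every DMSO library for 20 members, or 39.2%, against 13.0% of all genes tested. The reverse held for 0 members, against 13.7%.

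In the edgeR quasi-likelihood fit of auxin against DMSO, 0 members were called lower and 0 higher at an adjusted p under 0.1, where 2.46% of all genes were called lower and 4.32% higher. An unadjusted p under 0.05 was reached by 23 members, all lower, or 45.1% against 9.56% of all genes, the smallest adjusted p was 0.11 (PSMD6), and limma-voom also called 0. DESeq2 called 11 members lower, or 21.6%, against 5.35% of all genes. The replicate number was also used as a block, because same-numbered libraries of the 2 groups deviated together across genes. Their correlations were 0.15 to 0.58, though 1 differently numbered pair reached 0.25. Over the 51 members alone they were 0.83, -0.30 and -0.27 for replicates 1 to 3. The labels do not say what a replicate number marks. With the block, 32 of the 51 members were called lower, or 62.7%, against 14.6% of all genes. It called 0 members higher, against 16.2%. These 32 were 30 of the 45 tested genes of the proteasome, its chaperones and its regulators, and 2 of the SCF core. Their fold changes ran from -0.18 to -0.08 on the log2 scale. The median stayed at -0.10, so the block changed the error and not the size. The shares above, with those of libraries without overlap, are set against genes of all expression levels, not of like level. Most members stood above the median level of all tested genes, as given below. The part of expression level in these shares was not tested.

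How many members were called depended on which libraries entered and on the scale. Without the block it was 0 to 1 when any library but DMSO replicate 1 was left out, and 16 without that library. With the block it was 30 without pair 1, 27 without pair 2 and 15 without pair 3. Of the 15765 genes tested, 828 were called lower without DMSO replicate 1 and without the block. With the block 2095, 1684 and 1190 were called lower without pairs 1, 2 and 3. On log2(TPM + 1), where each library is brought to the same sum per length without a trimmed-mean factor, the block fit called 2 members lower, PSMB10 and PSMF1, where 1.79% of all genes were called lower, and the median member was -0.036 and the median of all genes 0.05. Of the 32 members called with the block, 12 were also called without each of the 3 pairs and with the trends of length and GC content removed, namely RBX1, PSMA1, PSMA2, PSMA3, PSMA7, PSMB4, PSMB5, PSMC1, PSMC6, PSMD6, PSMD9 and PSMD12.

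**Figure D1:**
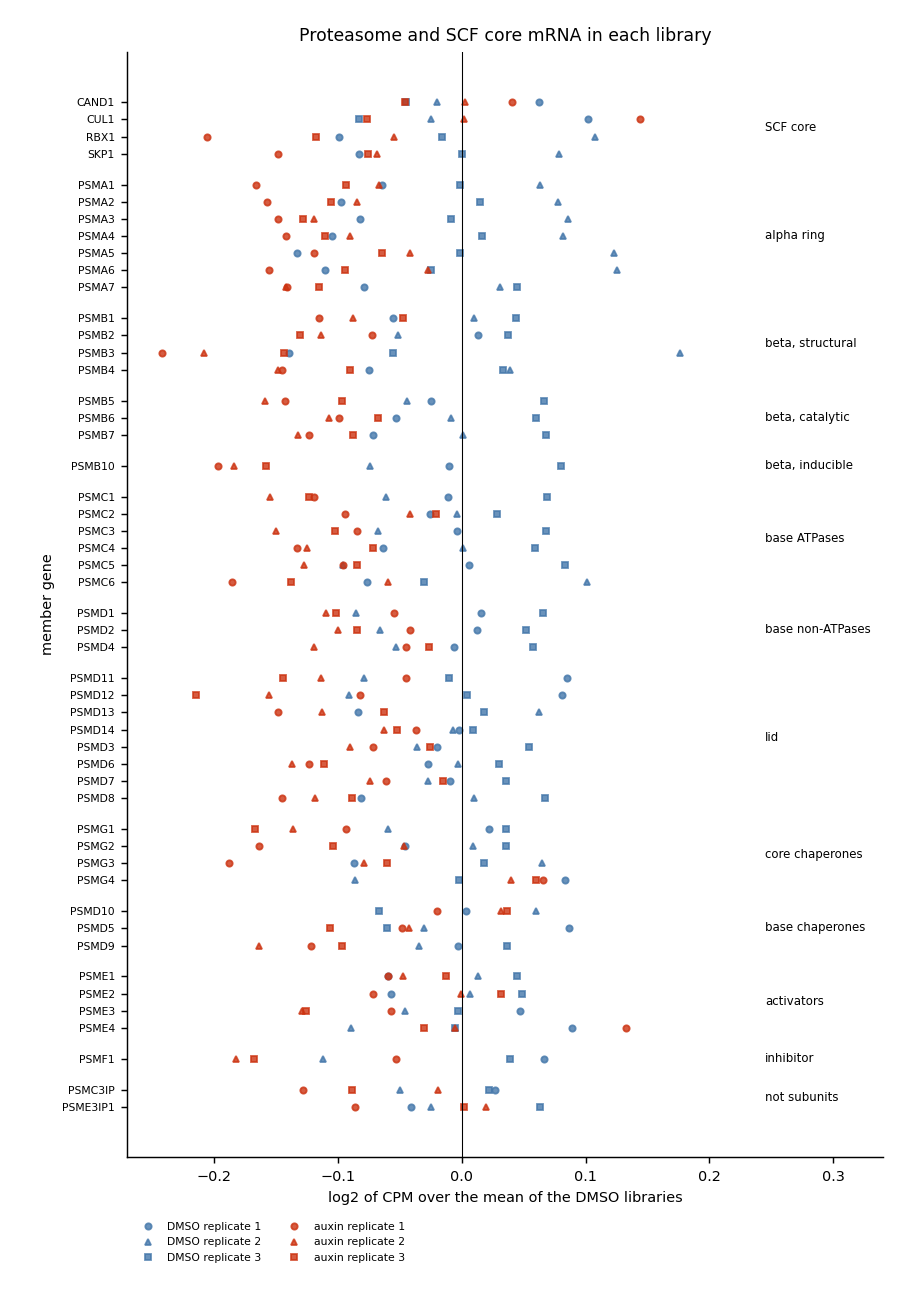
Each row is a tested member (PSMB9, at under 1 CPM, is not drawn), and each point 1 library, on the x axis as the log2 of its CPM over the mean of the DMSO libraries, with red for auxin, blue for DMSO and the marker shape for the replicate number. For most rows the 3 red points lie left of 0, and for 20 of the 51 tested members no red point reaches a blue one.

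The median member, taken over the 51 in each library against the DMSO mean, stood at -0.10, -0.09 and -0.09 (log2) in auxin replicates 1 to 3 and at -0.02, -0.01 and 0.03 in DMSO replicates 1 to 3. The 3 auxin libraries were therefore alike and below each DMSO library, and DMSO replicate 3 was the highest.

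In the SCF core, SKP1 and RBX1 were called lower with the block, and CUL1 and CAND1 were not called in either fit. SKP1 (GRCh38 chr5:134148935-134176964, minus strand) measured 256, 270 and 269 CPM in auxin and 268, 299 and 284 CPM in DMSO. The groups overlapped by 1 library, DMSO replicate 1. The log2 fold change of SKP1 was -0.10 ± 0.05 (SE), with an adjusted p of 0.28 without the block and 0.034 with it. The call was lost with the block once the trends with length and GC content were removed (adjusted p = 0.22) and without pair 2 (0.17). RBX1 (chr22:40951347-40973309, plus strand) measured 57.5, 63.8 and 61.1 CPM in auxin and 61.9, 71.4 and 65.6 CPM in DMSO. Here auxin replicate 2 exceeded DMSO replicate 1, while each auxin library was below the DMSO library of its own number. Its log2 fold change was -0.12 ± 0.06, with an adjusted p of 0.27 without and 0.013 with the block.

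CUL1 (chr7:148697914-148801110, plus strand) measured 130, 118 and 112 CPM in auxin and 126, 116 and 111 CPM in DMSO, and the groups overlapped throughout. Within each group the libraries spread more than the groups differed, and the log2 fold change was 0.03 ± 0.06 (adjusted p = 0.86, and 0.59 with the block). CAND1 (chr12:67269358-67319953, plus strand) measured 200.2, 195 and 188 CPM in auxin and 203, 192 and 189 CPM in DMSO, a log2 fold change of 0.00 ± 0.04 (adjusted p = 1.00 in either fit). No difference was detectable for these 2 genes at this depth and spread.

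Per unit of length the SCF subunits were far from equal in mRNA. SKP1 stood highest at 545 ± 10.5 TPM (transcripts-per-million, a level scaled for length, SD, n = 3) in auxin and 555 ± 25 in DMSO, and CUL1 lowest at 53.3 ± 4.44 and 50.01 ± 3.76 TPM, a mean over all libraries of 550.1 against 51.7 TPM. RBX1 lay at 81.0 ± 2.57 and 84.5 ± 3.88 TPM, and CAND1 at 76.7 ± 3.77 and 73.2 ± 1.87 TPM. The SD ranges of RBX1 and CAND1 overlapped in auxin, and the order SKP1, then these 2, then CUL1 held in both groups.

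**Figure D2:**
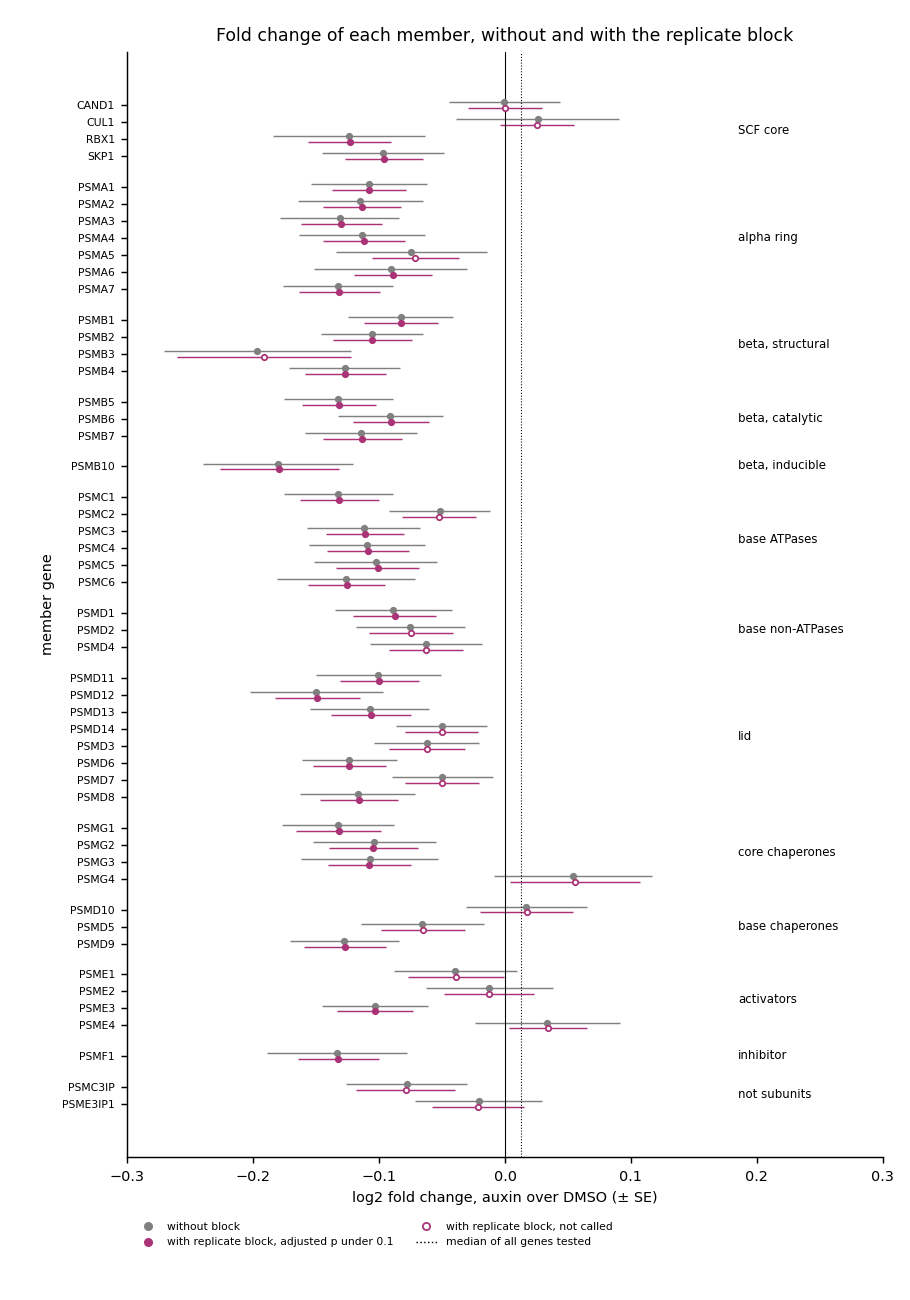
Log2 fold change of auxin over DMSO with its SE for each tested member but PSMB9, in grey without and in purple with the replicate block, filled where the adjusted p with the block was under 0.1. The points of the 2 fits nearly coincide, the bars are shorter with the block, and 32 members are filled, all left of 0, while the median of all genes (dotted) is at 0.01.

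The alpha subunits had values close to one another. All 7 tested alpha subunits had fold changes below 0, from -0.13 (PSMA7) to -0.07 (PSMA5) on the log2 scale, with a median of -0.11. With the block, 6 of the 7 were called lower, PSMA5 being the exception (adjusted p = 0.15), and without it none was. Removal of the trends with length and GC content left 4 called in the block fit, with PSMA4 (adjusted p = 0.13) and PSMA6 (0.17) lost. PSMA7 measured 299, 298 and 304 CPM in auxin and 312, 336 and 340 CPM in DMSO. Every auxin library lay below every DMSO library, with a log2 fold change of -0.13 ± 0.04 (adjusted p = 0.12, and 0.008 with the block). PSMA3 and PSMA1 were likewise without overlap between the groups. In level, PSMA4 was the highest of the ring at 511 TPM and PSMA5 the lowest of the tested subunits at 192 TPM, means over the 6 libraries. PSMA8, the alpha subunit of male germ cells, had 0 to 2 estimated counts per library and was not tested, so no comparison was possible at this depth.

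The structural beta subunits PSMB1 to PSMB4 were all lower in value, with a median log2 fold change of -0.12, and PSMB1, PSMB2 and PSMB4 were called with the block. PSMB1 was lost once the length and GC trends were removed (adjusted p = 0.22). PSMB3 had the most negative fold change of all members, -0.20 ± 0.07, and was not called in either fit (adjusted p = 0.18, and 0.13 with the block). DESeq2 called it (adjusted p = 0.055), as did the block fit with the length and GC trends removed (0.065). The block fit also called it without pair 1 (0.033) or pair 2 (0.061), and not without pair 3 (0.11) or on log2(TPM + 1) (0.21). Its DMSO libraries stood at 171, 213 and 182 CPM, so that DMSO replicate 2 was far above the others, against 160, 163 and 171 CPM in auxin. PSMB4 was the highest of these subunits at 497 TPM and PSMB2 the lowest at 160 TPM.

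In CPM, the subunits that cut peptide bonds were lower in every auxin library than in any DMSO library. In TPM the groups overlapped for PSMB5, PSMB6 and PSMB7. None was called with the block on log2(TPM + 1), at adjusted p of 0.16, 0.54 and 0.33 in that order. PSMB5 (chr14:23016543-23035230, minus strand), the chymotrypsin-like subunit and the target of bortezomib, measured 202, 200.2 and 209 CPM in auxin and 220, 217 and 234 CPM in DMSO. Its log2 fold change of -0.13 ± 0.04 had an adjusted p of 0.12, and of 0.005 with the block. PSMB6 (chr17:4796144-4798502, plus strand), the caspase-like subunit, measured 165, 164 and 168 CPM in auxin and 170, 175 and 184 CPM in DMSO. The gap between the groups was under 2 CPM at its narrowest, and the log2 fold change was -0.09 ± 0.04 (adjusted p = 0.24, and 0.039 with the block). The call was lost in the block fit once the trends with length and GC content were removed (adjusted p = 0.18) and without pair 2 (0.10) or pair 3 (0.23). PSMB7 (chr9:124353465-124415444, minus strand), the trypsin-like subunit, measured 232, 230 and 237 CPM in auxin and 240, 253 and 265 CPM in DMSO, a log2 fold change of -0.11 ± 0.04 (adjusted p = 0.18, and 0.016 with the block, 0.13 without pair 3).

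The catalytic subunits were also close to one another in level, at 308 TPM for PSMB5, 327 TPM for PSMB6 and 380 TPM for PSMB7, means over the 6 libraries. Within a library, PSMB5 was 92.9 ± 0.763% of PSMB6 in auxin and 95.7 ± 2.31% in DMSO, and PSMB6 was 86.7 ± 0.355% of PSMB7 in auxin and 85.4 ± 0.926% in DMSO (TPM, SD, n = 3). The ratios between these genes therefore moved by only a few percent.

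The inducible subunits, which replace the constitutive ones in the immunoproteasome of interferon-treated and lymphoid cells, were scarce apart from PSMB10. PSMB10 (chr16:67934506-67936864, minus strand), the counterpart of PSMB7, measured 18.4, 18.6 and 18.9 CPM in auxin and 20.9, 20.03 and 22.3 CPM in DMSO. The auxin libraries were tightly grouped below the DMSO libraries, and the log2 fold change was -0.18 ± 0.06 (adjusted p = 0.12, and 0.013 with the block, 0.12 without pair 3). In TPM it was 13.9 ± 0.238% of PSMB7 in auxin and 14.5 ± 0.515% in DMSO. Most of its TPM, 93.6%, was assigned to transcripts not annotated as coding. The retained-intron transcript PSMB10-203 alone held 82.9% in auxin and 85.4% in DMSO. A protein-coding gene model on the same strand overlaps PSMB10 with 18.5 CPM, so the split of reads between the 2 genes is uncertain.

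PSMB9 (chr6:32844136-32859851, plus strand), the counterpart of PSMB6, had 23, 36 and 13 estimated counts in auxin and 20, 11 and 19 in DMSO. The groups overlapped, with a log2 fold change of 0.42 ± 0.36 (adjusted p = 0.53, and 0.48 with the block), and PSMB9 came to 0.175 ± 0.0816% of PSMB6 in auxin and 0.113 ± 0.0284% in DMSO (TPM). PSMB8 (chr6:32840717-32844679, minus strand), the counterpart of PSMB5, had 21, 5 and 15 counts in auxin and 0, 2 and 2 in DMSO and was not tested. It was higher in each auxin library than in any DMSO library, on 41 counts against 4 in all, and in the fit without a filter on low counts it was the only member called (log2 fold change 3.14 ± 0.71, adjusted p = 0.011). PSMB11, the subunit of the thymic cortex, had at most 1 count in any library. PSMB8 and PSMB9 lie in the major histocompatibility complex, where transcripts of alternative haplotypes, had the index held them, would take reads from these copies, so their values may be too low.

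**Figure D3:**
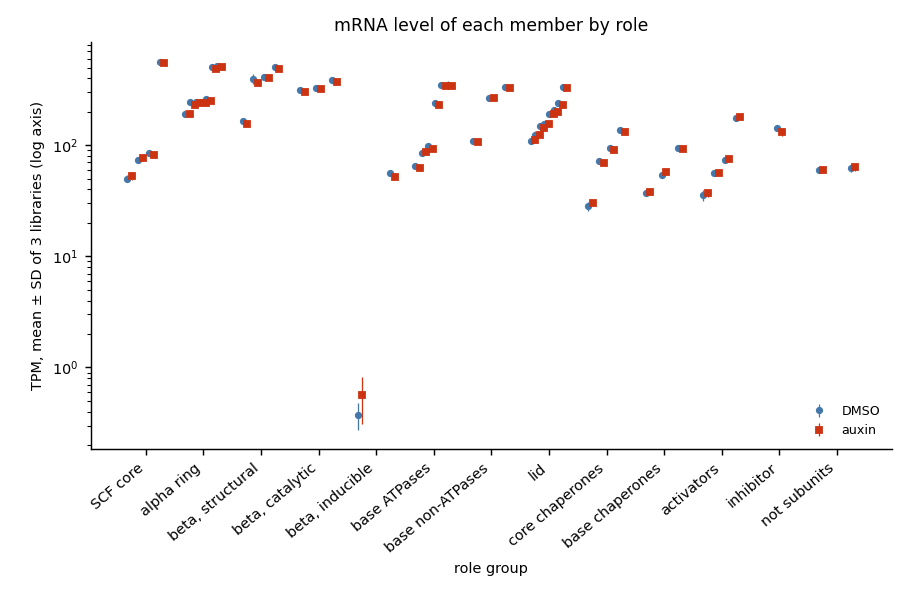
TPM of each tested member, mean ± SD of the 3 DMSO libraries (blue) and the 3 auxin libraries (red), on a log axis, ordered by level within each role. Apart from PSMB9 at about 0.5 TPM, the members lie between 29.3 and 550.1 TPM, and the red and blue points of a gene nearly coincide on this scale.

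The ATPases of the base, which thread the substrate into the barrel, were lower in value in 6 of 6 cases, with a median log2 fold change of -0.11. With the block, 5 were called lower, PSMC2 being the exception (log2 fold change -0.05 ± 0.04, adjusted p = 0.22 with the block). PSMC1 measured 231, 225 and 230 CPM in auxin and 249, 241 and 263 CPM in DMSO. Its groups did not overlap, and the log2 fold change was -0.13 ± 0.04 (adjusted p = 0.12, and 0.007 with the block). A processed copy, PSMC1P1, took 16.7 to 19% of the counts assigned to the 2 genes together, so the split between them is uncertain, and its own log2 fold change was -0.08 ± 0.05 (adjusted p = 0.43, and 0.11 with the block). The other 49 annotated pseudogenes of members had at most 26 counts in a library. PSMC5 and PSMC1 were the highest of the ATPases, at 346 TPM each, and PSMC4 the lowest at 63.3 TPM. Transcripts not annotated as coding held 53.2% of the TPM of PSMC1 and 8.02% of that of PSMC5.

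Among the non-ATPase subunits of the base, PSMD1 and PSMD2, the large scaffolds, and PSMD4, a ubiquitin receptor, had log2 fold changes of -0.09, -0.08 and -0.06. Of these only PSMD1 was called with the block (adjusted p = 0.066, 0.13 without pair 1 and 0.44 without pair 3). PSMD2 was the highest at 332 TPM and PSMD1 the lowest at 109 TPM.

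The lid was lower in value for 8 of 8 subunits, and 5 were called with the block, namely PSMD6, PSMD8, PSMD11, PSMD12 and PSMD13. PSMD12, with the most negative fold change of the lid, measured 306, 290 and 279 CPM in auxin and 342, 304 and 325 CPM in DMSO. The groups overlapped narrowly, auxin replicate 1 lying just above DMSO replicate 2, and the log2 fold change was -0.15 ± 0.05 (adjusted p = 0.14, and 0.005 with the block). PSMD6 measured 135, 134 and 137 CPM in auxin and 145, 147 and 151 CPM in DMSO. The groups did not overlap, and the log2 fold change was -0.12 ± 0.04 (adjusted p = 0.11, the smallest of the 51 members, and 0.007 with the block). PSMD14, the enzyme that removes the ubiquitin chain, measured 171, 168 and 169 CPM in auxin and 175, 174 and 176 CPM in DMSO. Its groups did not overlap either, yet the difference was small (log2 fold change -0.05 ± 0.04) and was not called (adjusted p = 0.46, and 0.23 with the block). PSMD8 was the highest of the lid at 329 TPM and PSMD7 the lowest at 109 TPM.

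Of the chaperones of the core particle, PSMG1 and PSMG2, which act as a pair on the alpha ring, and PSMG3 were called lower with the block, at log2 fold changes of -0.13, -0.10 and -0.11. PSMG2 was lost once the length and GC trends were removed (adjusted p = 0.12). PSMG4, the partner of PSMG3, was not (log2 fold change 0.05 ± 0.06), at 16.8, 16.5 and 16.8 CPM in auxin and 17.04, 15.2 and 16.1 CPM in DMSO. PSMG1 was the highest of this group at 133 TPM and PSMG4 the lowest at 29.3 TPM. Of the chaperones that help assemble the ATPase ring, PSMD9 was called lower with the block (log2 fold change -0.13 ± 0.04, adjusted p = 0.010) and stood highest at 93.8 TPM, on transcripts of which 66.3% by TPM are annotated as not coding. PSMD5, the lowest at 37.7 TPM, and PSMD10, or gankyrin, were not called, at -0.07 and 0.02.

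The activators, which open the barrel without ubiquitin, had a median log2 fold change of -0.03 over 4 genes, and 1 of them was called lower with the block. PSME1 (chr14:24136163-24138967, plus strand) measured 34.7, 35.0 and 35.8 CPM in auxin and 34.6, 36.4 and 37.2 CPM in DMSO, and PSME2 (chr14:24143362-24147570, minus strand) 39.1, 41.0 and 42.0 CPM in auxin and 39.5, 41.2 and 42.5 CPM in DMSO. These 2 form the ring induced by interferon, and neither differed beyond the spread (log2 fold changes -0.04 ± 0.05 and -0.01 ± 0.05, adjusted p = 0.69 and 0.92, and 0.51 and 0.85 with the block). PSME1 stood at 75.9 ± 1.91% of PSME2 in auxin and 75.4 ± 1.92% in DMSO (TPM). PSME3, the nuclear activator and the highest at 178 TPM, was called lower with the block (log2 fold change -0.10 ± 0.04, adjusted p = 0.021, 0.11 without pair 3). PSME4, the lowest at 36.3 TPM, was not (0.03 ± 0.06). PSMF1, which encodes an inhibitor of the core particle, was lower with the block (log2 fold change -0.13 ± 0.06, adjusted p = 0.21, and 0.008 with the block, 0.12 without pair 3), at 127, 117 and 118 CPM in auxin and 138, 122 and 136 CPM in DMSO. Of the TPM of PSMF1, 69.2% was assigned to transcripts not annotated as coding. PSMC3IP and PSME3IP1, caught by the symbol rule, were not called (log2 fold changes -0.08 ± 0.05 and -0.02 ± 0.05).

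The parts of the complex stand in fixed numbers in the assembled particle, and their mRNA levels were spread over a modest range. The 14 constitutive alpha and beta genes had a median of 318 TPM and differed by 3.19-fold from lowest to highest. The 17 genes of the cap had a median of 191 TPM and differed by 5.47-fold. Over all tested genes the median was 9.46 TPM. With the block, 12 of the 14 core genes and 11 of the 17 cap genes were called lower, with median log2 fold changes of -0.11 and -0.10.

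Transcript length moved with the fold change across the whole table, and the members are short. Their median effective length was 988 bases, against 2037 bases over all tested genes. In the shortest quintile of all genes the median log2 fold change was -0.07 and 26.2% were called lower with the block, and 28 members in that quintile had a median of -0.11, with 20 called lower. In the next quintile the medians were -0.03 for all genes and -0.11 for 11 members, and in the middle quintile 0.00 and -0.10 for 7 members. The members' values were therefore below those of genes of like length in these 3 quintiles. Among the 4 members of the next quintile the median was -0.03 against 0.03. Once the trends with length and GC content were removed, the block fit called 30 members lower, 26 of them among the 32 above. The members' median was then -0.10 against -0.03 over all genes. In that fit 3355 of the 15765 genes tested were called lower, against 2308 in the block fit with the trends kept. The members' median minus that of all genes was -0.07 with the trends removed and -0.12 with them kept. With effective lengths as offsets in the block fit, 21 members were called, of which 20 were among the 32. There 1265 of all genes tested were called lower. The part of RNA quality or fragment length in this trend was not tested.

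**Figure D4:**
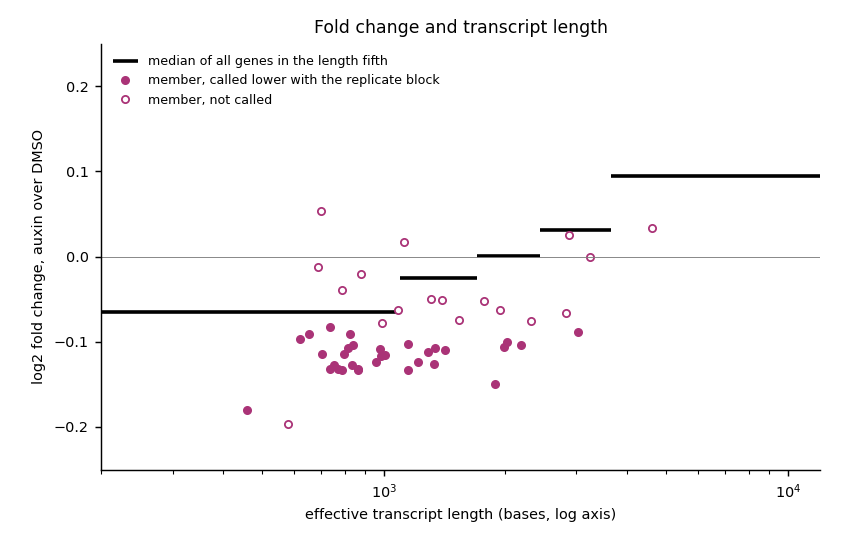
Log2 fold change of each tested member but PSMB9 against its effective transcript length (log axis), filled where it was called lower with the replicate block, with the median of all tested genes in each quintile of length as a black bar that runs off the plot at both ends. The bars rise from -0.07 to 0.09, and most members lie under the bar of their quintile.

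The use of transcripts hardly moved. The most used transcript was the same in both groups for 50 of the 51 tested members (PSME4 was the exception, where 2 transcripts lay close), and its share of the gene's TPM differed by at most 7.28 percentage points between groups (PSMC3, 63.1 ± 4.54% in auxin and 55.8 ± 4.11% in DMSO). For 24 members that transcript held over 80% of the TPM and for 15 under 50%. It was annotated as coding for 43 members. For PSMA5, 95.9% of the TPM was assigned to transcripts without a defined coding sequence. Transcripts not annotated as coding also held 69.0% of the TPM for PSMB2, 64.1% for PSME4, 63.6% for PSMD12 and 57.1% for PSMG1. Levels per length of such genes rest on the assignment of short paired reads between similar transcripts.

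The genes around the proteasome and the ligase were read from lists set out with the members. Without the block, 0 of the 17 proteasome partners that carry other names were called. With it, 7 were lower, or 41.2% against 14.6% of all genes, including POMP, the chaperone that matures the beta ring (log2 fold change -0.14, adjusted p = 0.004 with the block), ADRM1, a ubiquitin receptor (-0.14, 0.006), and SEM1, the smallest subunit of the lid (-0.12, 0.013). The 1 that was higher was ZFAND5, an activator of the proteasome (0.10, 0.028). These 4 were named after their values were seen.

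Among the factors known to raise proteasome transcription, NFE2L1 and MAFG were higher in auxin. NFE2L1 measured 513, 510.1 and 509 CPM in auxin and 443, 467 and 451 CPM in DMSO. The groups were well apart, and NFE2L1 was called higher without the block (log2 fold change 0.17 ± 0.04, adjusted p = 0.047, and 0.001 with it). MAFG, a small MAF partner of it, measured 150, 142 and 144 CPM in auxin and 121, 123 and 117 CPM in DMSO. It had the smallest adjusted p of the genes in these lists (log2 fold change 0.27 ± 0.04, adjusted p = 0.008, and 2.2e-05 with the block). Of the 7 genes in this list 2 were called higher and 0 lower (28.6% higher, against 4.32% of all genes), and 4 higher with the block (57.1%, against 16.2%), where MAFF, another small MAF, and DDI2, the protease that cleaves NFE2L1 free, were added. mRNA does not show whether the NFE2L1 protein was active. The shares of this list and of the other lists are set against genes of all lengths and levels, not of like length or level. Across the table the median log2 fold change rose from -0.07 in the shortest quintile to 0.09 in the longest. The part of length or level in these lists was not tested.

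Cullins are switched on by attachment of NEDD8 and off by its removal. The COP9 signalosome, which removes it, had COPS2 called lower at 145, 139 and 131 CPM in auxin and 160, 159 and 151 CPM in DMSO. The groups did not overlap (log2 fold change -0.18 ± 0.05, adjusted p = 0.074, and 0.001 with the block). Of the 10 genes of this list 1 was called lower without the block (10%, against 2.46% of all genes) and 8 with it (80%, against 14.6%), with a median log2 fold change of -0.11. Of the 10 genes of NEDD8 conjugation 0 were called without the block and 3 lower with it (30%). Of the 9 other cullins, RING partners and CAND2, 0 were called without the block and 1 in each direction with it (11.1%), and of the 7 ubiquitin-conjugating enzymes that serve SCF ligases 0 without and 2 lower with it (28.6%). Over all genes 14.6% were called lower and 16.2% higher with the block.

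Of the F-box proteins, the endogenous counterparts of AtAFB2, 62 were tested. Without the block 6.45% (4) were called higher and 1.61% (1) lower, against 4.32% and 2.46% of all genes, and with it 19.4% (12) higher and 8.06% (5) lower, against 16.2% and 14.6%. The shares called higher are near those of all genes. FBXO5, an inhibitor of the anaphase-promoting complex, measured 38.9, 39.7 and 37.2 CPM in auxin and 48.3, 46.6 and 44.5 CPM in DMSO. The groups were well apart (log2 fold change -0.27 ± 0.05, adjusted p = 0.023). FBXO32, or atrogin, was higher at 1.77 to 1.90 CPM against 1.14 to 1.29 CPM (0.61 ± 0.13, adjusted p = 0.043), FBXL20 at 25.1 to 29.8 CPM against 21.6 to 23.5 CPM (0.31 ± 0.07, adjusted p = 0.055) and FBXO33 at 19.1 to 20.03 CPM against 16.7 to 17.4 CPM (0.20 ± 0.06, adjusted p = 0.084). Of the 9 genes that supply peptides to MHC class I, 0 were called without the block, and 4 higher (44.4%) and 1 lower (11.1%) with it. Among the lists in which edgeR without the block called 0, an unadjusted p under 0.05 was reached by 5 of the proteasome partners, 2 of the NEDD8 conjugation genes, 2 of the MHC class I genes and 0 of the other cullins and of the conjugating enzymes. Of all genes, 9.56% reached it on the lower side alone. DESeq2 called 3, 0, 1, 0 and 0 of the genes in these lists, in the same order, and limma-voom 0 of each. Over all genes tested DESeq2 called 10.4% and limma-voom 6.48%, both directions together.

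**Figure D5:**
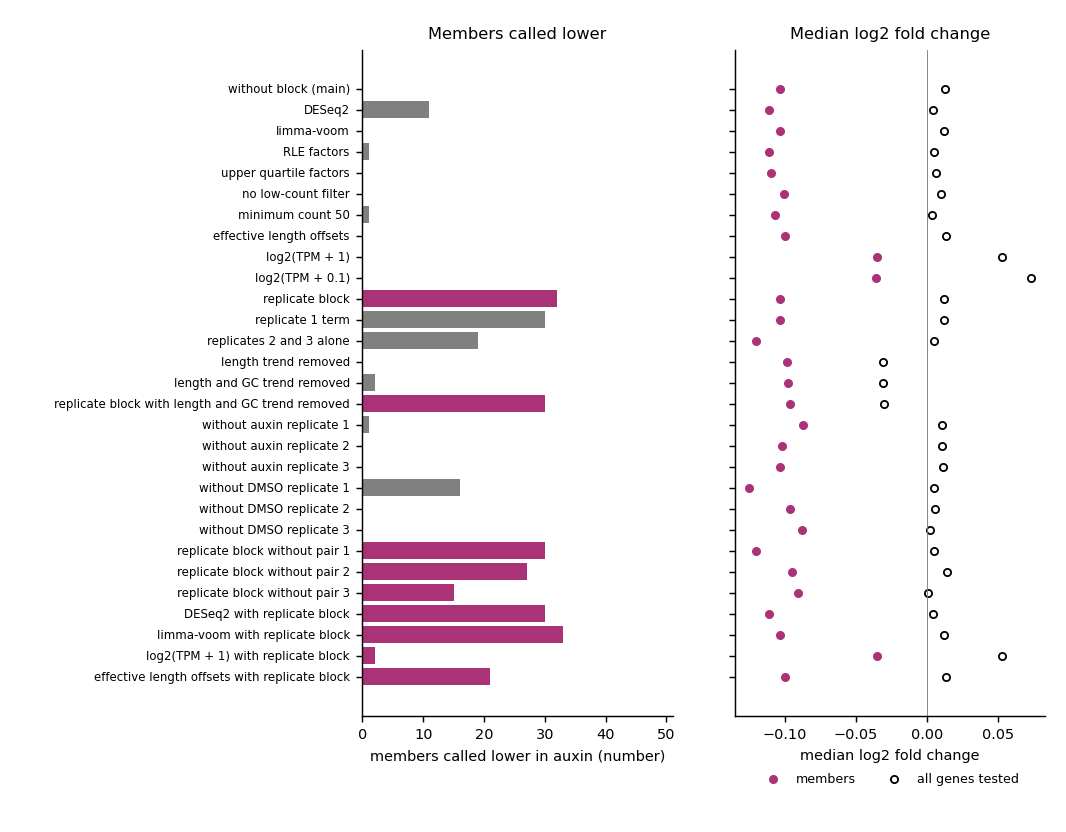
For each way of processing, the left panel gives the number of members called lower in auxin (50 to 54 tested, purple where the replicate number was a block) and the right panel the median log2 fold change of the members (filled) and of all genes tested (open). The count runs from 0 to 33, while the members' median stays below 0 and below that of all genes in each setting.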

How the data were processed

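Poly(A) RNA of 6 libraries was sequenced by the authors as directional paired-end reads and pseudoaligned with kallisto to a transcript set of hg38 (no source used here gives its release or strand setting). The deposited tables hold estimated counts, lengths and effective lengths for 199240 transcripts per library. GENCODE v44 matched 178869 of them (89.8%, holding 96.2 to 96.3% of the estimated counts), and these were summed per gene and rounded. The other 20371 were not used.

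Genes were filtered with filterByExpr (minimum count 10, total 15), scaled by TMM and tested with edgeR 4.0.16 (quasi-likelihood, robust, R 4.3.3), with Benjamini-Hochberg adjustment over the 15765 tested genes and calls at an adjusted p under 0.1. DESeq2 1.42.0 and limma 3.58.1 were alternatives. CPM are TMM-scaled, TPM use effective lengths, and errors of fold changes are SE. Without strand information on the counting, reads of overlapping genes on opposite strands (21 members) may have been shared, and 9 members overlap a gene on their own strand. The scripts were tested on simulated counts.

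Replicate numbers come from the titles. Deviations of same-numbered libraries from their group means correlated at 0.58, 0.15 and 0.46 over 10920 genes, every pair over 0.1. Differently numbered libraries correlated at -0.62 to 0.25 over these genes, auxin replicate 3 with DMSO replicate 2 being above pair 2. Over the 51 members alone the same-numbered libraries correlated at 0.83, -0.30 and -0.27. On the values over 10920 genes the numbers were taken to pair the samples, and blocked values are given beside the results. Genes were named by rule: the SCF core, the constitutive and inducible catalytic subunits, PSME1 and PSME2, the highest and lowest TPM of each role, members that failed the filter, and up to 4 called genes per list. Other members, and those given as examples of calls with the block, were named after their values were seen. The members, lists and alternatives were chosen with earlier results of these data known. The results of 1 further gene list are not reported here.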

Additional observations from a re-analysis of the deposited data

How the results depend on the processing

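Of the 28 other settings, 7 were chosen after seeing the data, all with the replicate block. The count of members called lower, 0 as reported, was 11 with DESeq2, 1 with RLE factors, 1 with a minimum count of 50, 2 with the length and GC trends removed, 30 with a term for replicate 1, 19 in replicates 2 and 3 alone, and 0 to 16 when 1 library was left out (16 without DMSO replicate 1). With the replicate block it was 32, 30 with the length and GC trends also removed, 30 with DESeq2, 33 with limma-voom, 21 with effective length offsets, 2 on log2(TPM + 1), and 30, 27 and 15 without pairs 1, 2 and 3. The count called higher was 0 except for 1, PSMB8, without a filter. The median member, -0.10, was -0.036 on log2(TPM + 1), with or without the block, and on log2(TPM + 0.1), and -0.13 to -0.09 when 1 library was left out. Of the 32 members called with the block, 30 lay below 0 on the TPM scales and all 32 in every other setting. Over all genes the block raised the calls from 681 higher and 388 lower to 2559 and 2308. Without the block, DESeq2 called 844 of all genes lower, and 828 were called without DMSO replicate 1. A term for replicate 1 gave 1809, and replicates 2 and 3 alone 1278. With the block, 3355 were called lower with the trends also removed, 1497 with DESeq2 and 2282 with limma-voom. Effective length offsets gave 1265, log2(TPM + 1) 282, and the fits without pairs 1, 2 and 3 gave 2095, 1684 and 1190. The share of higher among all calls, 63.7%, was 48.5% with DESeq2, 92.9% on log2(TPM + 1), 76.6% with effective length offsets, 33.3% after removal of the length trend and 30.9% after removal of the GC trend too. With full in place of effective transcript lengths, median levels moved to 84.8 TPM for the SCF core (from 78.8), 255 for the alpha ring (243), 181 for the ATPases (165), 60.1 for the base chaperones (55.9), 287 for the base non-ATPases (267) and 196 for the lid (172). Of the named calls, MAFG held in all settings, while FBXO33 was lost in 11 of 28, FBXL20 and FBXO32 in 9 each, COPS2 in 7, NFE2L1 in 5 and FBXO5 in 2. The cause was not tested.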
